A study of Mus musculus with 8 samples.

Results

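The genes described here encode potassium channels (Kcn), voltage-gated sodium channels (Scn), voltage-gated calcium channels (Cacn) and the pacemaker channels (Hcn), with their auxiliary subunits. They were chosen by the start of the gene symbol among array rows annotated with exactly 1 gene, and a gene with several rows was represented by the one brightest on average across the 8 hearts. This gave 130 of the 19938 genes measured. Of these, 127 are protein coding in RefSeq, and 3 (Kcnd3os, Kcnmb4os1 and Kcnmb4os2) are non-coding neighbours of channel genes that share the start of the symbol. A group of 31 had a mean of at least 7 on the log2 scale in the control hearts and is given separately. It includes the non-coding Kcnd3os (control mean 7.48, difference -0.23). The member just inside this limit was Kcnip3 (control mean 7.08) and the member just outside was Cacna2d2 (6.99). Not every cardiac channel is covered.

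Hearts came from 4 MHC-Plin5 and 4 control mice, all males of 12 weeks on a c57/bl background, and the labels give both groups as fasted. MHC-Plin5 mice overexpress Plin5, which encodes the lipid droplet coat protein perilipin 5, specifically in cardiomyocytes. The labels say no more of the control genotype than "control" and do not say whether the mice were littermates or how much of the atria was taken. The question put to the arrays is how added perilipin 5 goes with transcript levels. The deposited values are log2 levels made by RMA, which corrects background, aligns the arrays and summarises the probes of a row. Differences are MHC-Plin5 minus control on that scale, and a gene was called at a limma adjusted p under 0.05 over all 19938 genes. Correlations between any 2 hearts ran from 0.974 to 0.995, and the array medians from 5.99 to 6.24. Plin5 separated the groups, with 12.08 to 12.69 in MHC-Plin5 hearts and 8.58 to 9.04 in control hearts. The cardiomyocyte markers (Myh6, Tnnt2 and 6 others) averaged 13.07 to 13.27 in MHC-Plin5 hearts and 13.20 to 13.26 in control hearts. The 12 lists of cell type markers examined held 76 measured entries, of which limma called 0. An unadjusted limma p under 0.05 was reached by 12 of the 76 and by 3300 of all 19938 genes. The latter is the background for such counts over short lists below. All 6 fibroblast and all 7 macrophage markers had a difference above 0 (medians 0.33 and 0.30), and all 5 ventricular markers one under 0 (median -0.25). The part of such shifts in the channel results was not tested. Having 4 arrays in each group limits the precision.

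Each heartbeat is an electrical cycle carried by these channels. Sodium channels start the action potential of working muscle, calcium channels sustain it and trigger contraction, and several kinds of potassium channel end it and hold the resting potential. In the sinoatrial node, where the resting potential is unstable, HCN channels carry an inward current that helps set the rate, and acetylcholine from the vagus nerve slows it partly by opening a potassium channel.

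Most of the better expressed channel genes had lower levels in MHC-Plin5 hearts. Among the 31 with a control mean of at least 7, 29 had a difference under 0. This was so in 47.6% of all 8854 genes with such a control mean. The median was -0.33, against 0.01 over those 8854. The limit was set on control hearts alone, so it favours genes that are higher there, among the 8854 as well. Kcnv2 passed with 7.13 in control and 6.57 in MHC-Plin5 hearts, and Kcnn3 did not with 6.73 and 7.03. Those of the 31 with a mean of at least 7 over all 8 hearts had a median of -0.32. Of the 31, 3 were called lower, namely Hcn4, Kcnj8 and Kcnj5, and 0 were called higher. The background at that level was 2.19% called lower and 3.44% called higher, so the 3 of 31 (9.68%) stood above the first of these. The count called lower was 8 without MHC-Plin5 4, 1 without MHC-Plin5 2, MHC-Plin5 3 or control 4, and 0 without control 1, 2 or 3. An unadjusted limma p under 0.05 was reached by 18 of the 31 and by 2337 of the 8854. In 8 of the 31 all MHC-Plin5 hearts lay below all control hearts, where 8.0% of genes at that level did so, and in 0 the order was the other way, where 11.1% of genes were. These 8 were Hcn4, Kcnj2, Kcnj3, Kcnj5, Kcnj8, Kcnd3, Kcnk3 and Cacna2d1. In whole hearts, fewer cells of a type and less RNA per cell cannot be told apart.

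**Figure D1:**
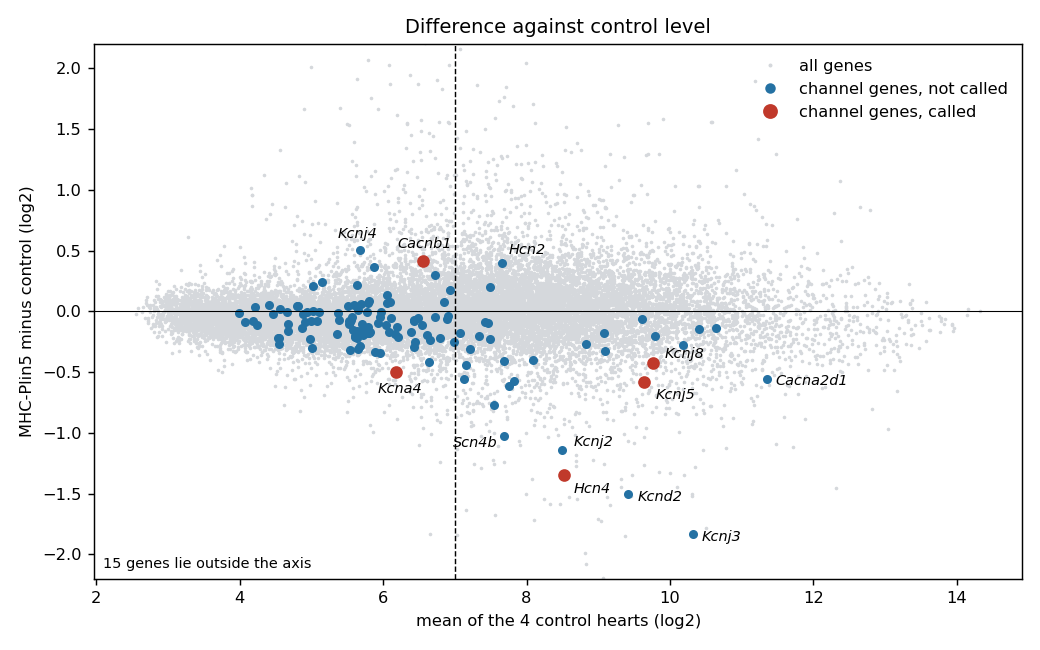
Each point is a gene, with its mean in the 4 control hearts (log2) on the x axis and its difference, MHC-Plin5 minus control (log2), on the y axis; the dashed line marks a control mean of 7. Right of the line 29 of 31 channel genes lie below 0, and the 5 called channel genes are in red. The axis leaves out 15 other genes.

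The promoters of the 3 called genes of that group and of Kcnj3, which forms a channel with Kcnj5, are shown because their differences share a direction. The sequences are from RefSeq (GRCm38.p6) and run 5′ to 3′ on the strand of the gene, from 250 bases before to 50 bases after the annotated start. They lie at chr9:58822699-58822998 on the plus strand (Hcn4), chr2:55435720-55436019 on the plus strand (Kcnj3), chr9:32344295-32344594 on the minus strand (Kcnj5) and chr6:142571565-142571864 on the minus strand (Kcnj8). Capitals mark matches, on either strand, to any of 6 motifs: AGATAA, known from GATA factors, AGGTGTGA, known from T-box factors, TGATGNAA, known from ATF4 and its partners, the E-box CACGTG, the GC box GGGCGG and the core promoter element TATAAA.
Hcn4: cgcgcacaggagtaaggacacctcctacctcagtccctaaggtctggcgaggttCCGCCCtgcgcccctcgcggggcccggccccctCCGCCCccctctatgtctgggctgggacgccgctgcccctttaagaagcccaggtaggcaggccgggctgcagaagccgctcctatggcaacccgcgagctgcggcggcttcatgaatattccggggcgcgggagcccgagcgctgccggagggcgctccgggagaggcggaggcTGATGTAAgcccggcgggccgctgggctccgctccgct
Kcnj3: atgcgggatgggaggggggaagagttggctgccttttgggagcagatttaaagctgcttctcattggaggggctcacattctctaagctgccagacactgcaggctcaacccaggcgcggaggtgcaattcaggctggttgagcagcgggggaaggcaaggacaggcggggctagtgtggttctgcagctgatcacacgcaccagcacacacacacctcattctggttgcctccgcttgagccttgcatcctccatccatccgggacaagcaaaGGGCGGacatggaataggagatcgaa
Kcnj5: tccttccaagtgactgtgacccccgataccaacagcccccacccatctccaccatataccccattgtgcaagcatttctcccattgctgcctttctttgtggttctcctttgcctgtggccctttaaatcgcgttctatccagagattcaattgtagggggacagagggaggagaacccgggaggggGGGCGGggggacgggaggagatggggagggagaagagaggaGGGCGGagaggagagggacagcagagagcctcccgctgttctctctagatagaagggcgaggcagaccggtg
Kcnj8: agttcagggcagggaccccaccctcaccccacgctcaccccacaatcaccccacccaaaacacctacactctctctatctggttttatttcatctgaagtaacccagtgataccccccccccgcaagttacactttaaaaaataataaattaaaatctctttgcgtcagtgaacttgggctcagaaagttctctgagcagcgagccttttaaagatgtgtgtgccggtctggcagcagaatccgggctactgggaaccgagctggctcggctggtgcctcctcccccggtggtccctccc

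The Hcn4 promoter held 1 match to TGATGNAA, beginning 12 bases after the start, and 2 to GGGCGG. The Kcnj5 promoter held 2 matches to GGGCGG, that of Kcnj3 held 1, and the Kcnj8 promoter matched 0 of the 6 motifs. No matches overlapped. Of 32851 promoters of this length in the table, 3.97% held TGATGNAA and 35.7% held GGGCGG. The same 2 motifs were in 8.0% and 68.0% of the 25 promoters found for 21 of the 31 genes. AGATAA was in 11.2% of all promoters and 8.0% of the 25, CACGTG in 7.15% and 4.0%, and TATAAA in 13.6% and 0%. AGGTGTGA was in 1.28% of all promoters and 0% of the 25. A match describes these letters only. The base composition differed between the 4, with 71.7% G and C and 31 CG pairs in Hcn4, against 53.3% and 9 in Kcnj8.

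Hcn4 had the smallest p of all 130 genes. It encodes the main pacemaker channel of the sinoatrial node. Hcn4 stood at 7.11, 6.60, 7.03 and 7.99 in MHC-Plin5 hearts 1 to 4, against 8.82, 8.58, 8.56 and 8.15 in control hearts 1 to 4. The groups did not overlap, though MHC-Plin5 4 came close to control 4. The means were 7.18 ± 0.58 and 8.53 ± 0.28 (SD, n = 4 each), which is 2.54-fold lower in MHC-Plin5 hearts (difference -1.34, SE 0.25, limma adjusted p = 0.0175). The call ended without control 1, control 2 or control 3, with adjusted p values of at most 0.0667. Hcn2, the HCN form of ventricular muscle, had the opposite sign. It stood at 8.24, 7.52, 8.05 and 8.40 in MHC-Plin5 hearts and at 7.72, 7.59, 7.70 and 7.60 in control hearts. In all, 3 of the 4 MHC-Plin5 hearts lay above all controls and MHC-Plin5 2 below them. Hcn2 was not called (difference 0.40, SE 0.16, adjusted p = 0.25), and without MHC-Plin5 2 it was called higher (0.58, adjusted p = 0.048), while leaving out other single hearts gave adjusted p values up to 0.419. Hcn3, a form with a low level in these hearts, had 5.64 as its control mean and a difference of 0.22 (adjusted p = 0.482).

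**Figure D2:**
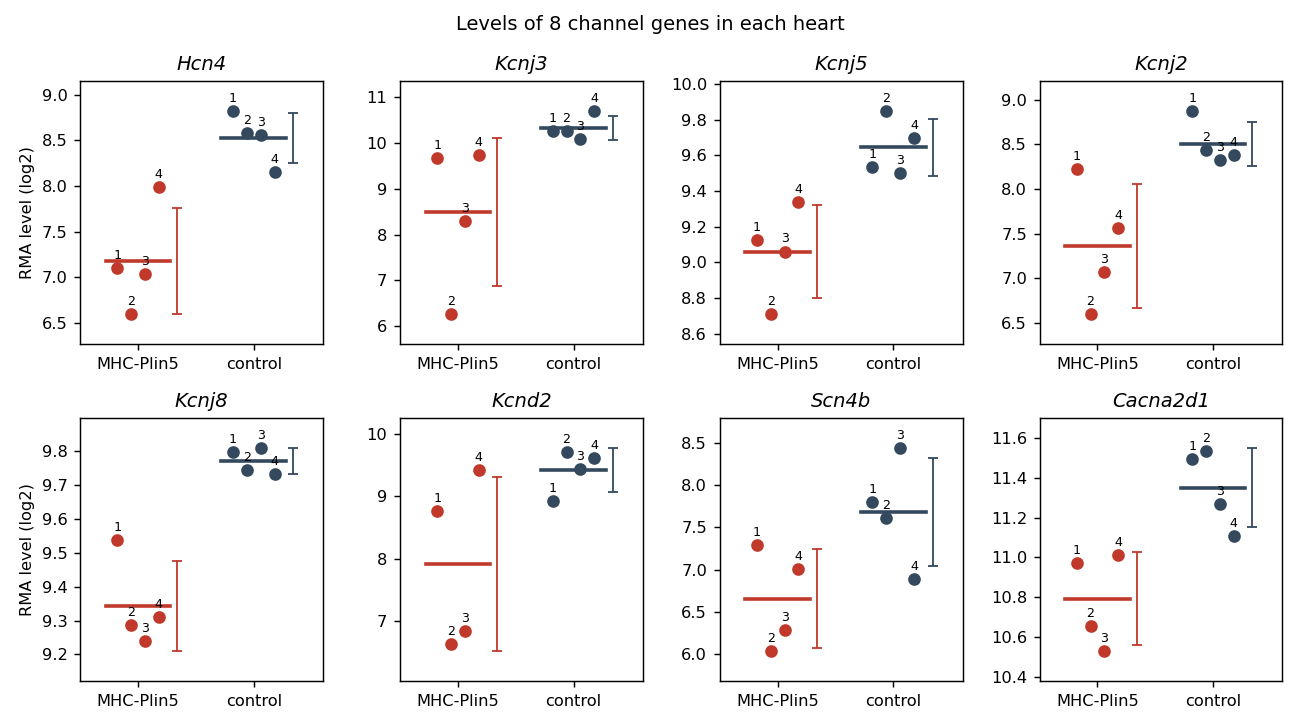
Levels (RMA, log2) of 8 channel genes in each heart, MHC-Plin5 in red and control in dark blue; numbers give the heart, horizontal lines the mean and bars the SD of 4 hearts. Axes differ between panels and do not start at 0. Groups do not overlap in Hcn4, Kcnj3, Kcnj5, Kcnj2, Kcnj8 and Cacna2d1. MHC-Plin5 2 and 3 are the lowest points in all 8 panels.

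Inward rectifiers are potassium channels that pass current mainly near the resting potential. Of the 15 measured, 2 were called lower and 0 higher, where 1.17% and 2.08% of all genes were. A difference under 0 was found in 14, against 57.5% of all genes. Kcnj3 and Kcnj5 form the channel that acetylcholine opens through G proteins in the node and the atria. Kcnj5 stood at 9.13, 8.71, 9.06 and 9.34 in MHC-Plin5 hearts, against 9.53, 9.85, 9.50 and 9.70 in control hearts. No MHC-Plin5 heart reached a control, and Kcnj5 was called lower by 1.50-fold (difference -0.58, SE 0.14, adjusted p = 0.0455). Kcnj3 had the largest difference of all 130 genes, -1.83, which is 3.55-fold lower. Its levels were 9.68, 6.27, 8.29 and 9.74 in MHC-Plin5 hearts and 10.26, 10.25, 10.09 and 10.69 in control hearts. The groups did not overlap, but the MHC-Plin5 hearts spread over 8.49 ± 1.62, against 10.32 ± 0.26 in control hearts (SD, n = 4 each). With that spread Kcnj3 was not called (SE 0.61, adjusted p = 0.148, 95% interval -3.17 to -0.49). When single hearts were left out, Kcnj5 kept its call only without MHC-Plin5 4, and its adjusted p reached at most 0.124.

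Kcnj2 and Kcnj12 encode subunits of the strong inward rectifier that holds the resting potential of ventricular muscle. Kcnj2 stood at 8.22, 6.60, 7.07 and 7.56 in MHC-Plin5 hearts, against 8.87, 8.44, 8.32 and 8.38 in control hearts. All MHC-Plin5 hearts lay below all controls, narrowly so for MHC-Plin5 1. The difference of -1.14 (SE 0.28, 95% interval -1.76 to -0.52) missed the threshold, with an adjusted p of 0.0561, and passed it without MHC-Plin5 1 (-1.43, adjusted p = 0.0085) but with no other single heart left out, when it reached up to 0.165. Kcnj12 had a difference of -0.31 (SE 0.12, adjusted p = 0.231). Kcnj4, another strong inward rectifier, was the 1 inward rectifier above 0, at 5.83, 6.37, 6.29 and 6.22 in MHC-Plin5 hearts and 5.58, 5.77, 5.70 and 5.64 in control hearts. Its difference of 0.50 (SE 0.12) came with an adjusted p of 0.0515, from a dim row with a control mean of 5.67.

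Kcnj8 and Kcnj11 encode pores of the potassium channel that ATP closes, Kcnj8 chiefly in vessel wall cells and Kcnj11 in ventricular muscle. Kcnj8 had narrow groups, at 9.54, 9.29, 9.24 and 9.31 in MHC-Plin5 hearts, against 9.80, 9.74, 9.81 and 9.73 in control hearts. It was called lower by 1.34-fold (difference -0.43, SE 0.10, adjusted p = 0.0377). Leaving out 1 heart kept that call only for MHC-Plin5 1 or MHC-Plin5 4, and median centring ended it (adjusted p = 0.0867). The call also ended with the heart number as a block (0.0887) and without the 2 arrays with the highest medians (0.0694). Kcnj11 was not called (difference -0.18, 95% interval -0.68 to 0.32). Abcc9, the regulatory subunit that assembles with both pores, had a difference of -0.45 (SE 0.15, adjusted p = 0.159). Of the 5 pericyte markers limma called 0 (3 had an unadjusted p under 0.05), and their mean level was 9.04 to 9.22 in MHC-Plin5 hearts and 9.22 to 9.42 in control hearts. Vtn and Rgs5 of that list had differences of -0.75 (adjusted p = 0.0666) and -0.36 (0.0951). The 5 pericyte markers did not share a direction, with 3 under 0, a median of -0.08 and a highest difference of 0.34. The part of pericytes in the Kcnj8 value was not tested.

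Voltage-gated potassium channels repolarise the cell. Of the 35 measured, 1 was called lower (2.86%) and 0 higher, near the 1.17% and 2.08% of all genes, and 30 had a difference under 0, against 57.5% of all genes. Kcnd2 and Kcnd3 are pores of the transient outward current, which shapes the early repolarisation of the mouse ventricle. Kcnd2 stood at 8.76, 6.64, 6.84 and 9.42 in MHC-Plin5 hearts, against 8.93, 9.70, 9.44 and 9.61 in control hearts. MHC-Plin5 2 and 3 lay more than 2 log2 units under every control, while MHC-Plin5 4 lay among them. The means were 7.92 ± 1.38 and 9.42 ± 0.35 (SD, n = 4 each), and Kcnd2 did not pass (difference -1.50, SE 0.53, adjusted p = 0.169). Without MHC-Plin5 4 it was -2.01 (adjusted p = 0.0274), without MHC-Plin5 2 it was -1.08 (0.382) and without MHC-Plin5 3 it was -1.15 (0.396). Kcnd3 separated the groups with a smaller difference of -0.40 (SE 0.14, adjusted p = 0.17), at 7.26 to 7.95 in MHC-Plin5 hearts and 7.98 to 8.17 in control hearts. Kcnip2, the subunit that the transient outward current needs in mouse heart, had -0.20 (95% interval -0.56 to 0.16, adjusted p = 0.611). Its levels were 9.99, 9.31, 9.21 and 9.84 in MHC-Plin5 hearts, against 9.74, 9.76, 9.82 and 9.84 in control hearts, so again hearts 2 and 3 were the lowest.

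Kcna4, the pore of the slow transient outward current, was the called member of this class. It stood at 5.82, 5.49, 5.67 and 5.75 in MHC-Plin5 hearts and at 6.32, 6.21, 5.93 and 6.26 in control hearts (difference -0.50, SE 0.12, adjusted p = 0.0419). Its row is dim, and the call ended after quantile normalization and after median centring. The call also ended with the array median as a covariate (adjusted p = 0.0588) and with the heart number as a block (0.0677). Without the 2 arrays with the highest medians the adjusted p was 0.0841. Leaving out 1 heart kept the call in 3 of 8 cases, without MHC-Plin5 1, MHC-Plin5 4 or control 3, and the adjusted p reached 0.143. Kcna5, which carries a fast delayed rectifier current, had a difference of 0.14 (95% interval -0.32 to 0.60). Kcnh2, the pore of the rapid delayed rectifier, had -0.33 (adjusted p = 0.438), and Kcnq1, the pore of the slow one, had -0.27 (0.47). In both, MHC-Plin5 4 was above the control mean and hearts 2 and 3 were lowest. Kcne1, the partner of Kcnq1, had 0.08 (95% interval -0.46 to 0.61). Kcnv2, a subunit that forms channels only with others, had -0.56 (SE 0.17, adjusted p = 0.103). Kcna1, best known from neurons, had -0.42 (SE 0.25, adjusted p = 0.448) at a control mean of 6.64. Of 17 auxiliary or regulatory potassium channel genes limma called 0, with 1 at an unadjusted p under 0.05, and their differences ran from -0.34 to 0.08.

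**Figure D3:**
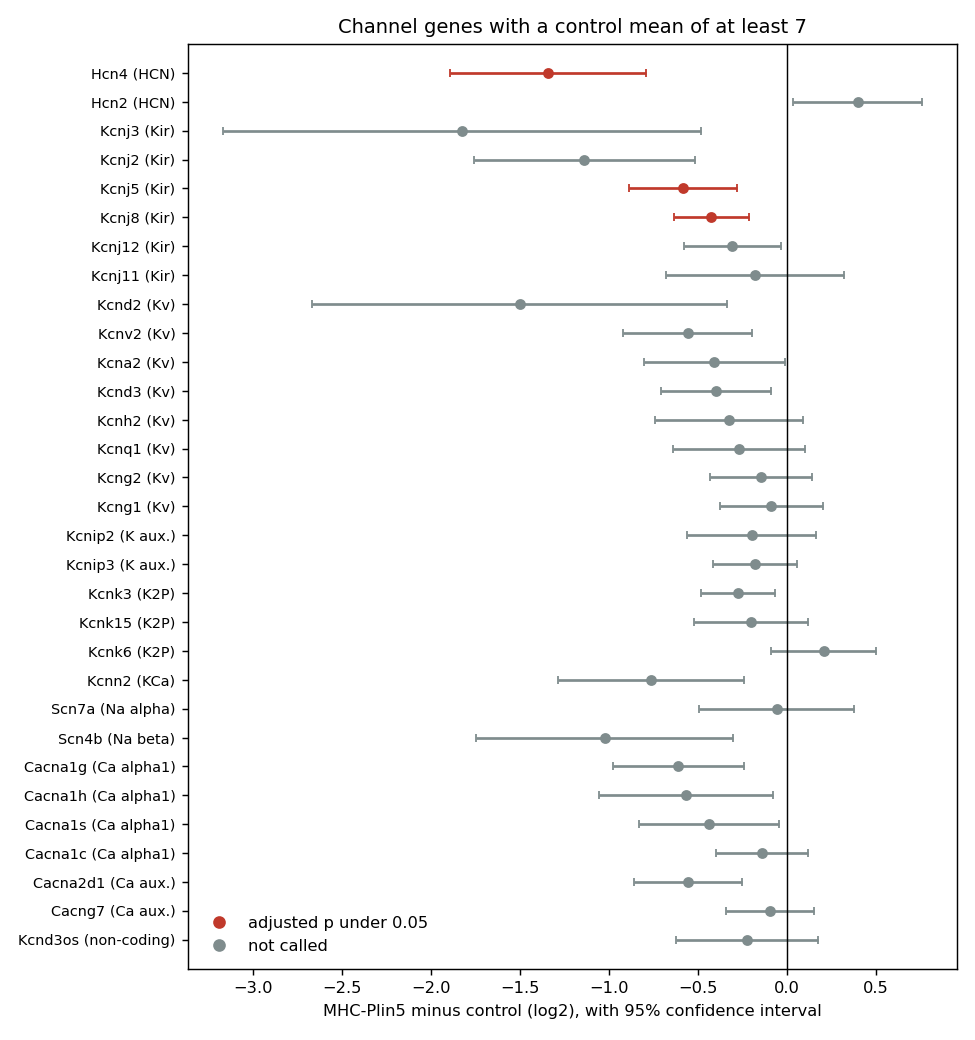
Differences, MHC-Plin5 minus control (log2), with 95% confidence intervals from limma for the 31 channel genes with a control mean of at least 7, grouped by class. Red points are the 3 called genes, Hcn4, Kcnj5 and Kcnj8; Hcn2 and Kcnk6 are the 2 genes above 0.

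Kcnk3 belongs to the background potassium channels that stay open at rest. It stood at 9.92, 9.82, 9.84 and 10.01 in MHC-Plin5 hearts, against 10.26, 10.16, 10.25 and 10.04 in control hearts. The groups did not overlap, but the difference was small and not called (-0.28, SE 0.10, adjusted p = 0.16). Over the 14 genes of that family limma called 0, and 3 had an unadjusted p under 0.05. Kcnn2, a calcium-activated potassium channel of atrial muscle, had 7.21, 6.23, 6.43 and 7.24 in MHC-Plin5 hearts and 7.91, 7.23, 7.67 and 7.36 in control hearts. MHC-Plin5 2 and 3 were again the lowest, and the difference of -0.77 (SE 0.24) had an adjusted p of 0.118. Kcnt2, of the sodium-activated kind, had 0.36 (SE 0.25, adjusted p = 0.524).

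Of the 8 alpha and 3 beta subunits of sodium channels limma called 0, with an unadjusted p under 0.05 in 1. Scn4b encodes a beta subunit that speeds the recovery of the cardiac sodium channel for the next beat. It stood at 7.30, 6.05, 6.29 and 7.0 in MHC-Plin5 hearts, against 7.80, 7.61, 8.44 and 6.89 in control hearts. Control 4 lay between the MHC-Plin5 hearts, so the groups overlapped, and both spread widely, over 6.66 ± 0.59 and 7.68 ± 0.64 (SD, n = 4 each). Scn4b did not pass the threshold (difference -1.03, SE 0.33, adjusted p = 0.132). Scn7a, a sodium-sensing relative of the family, was the 1 alpha subunit with a control mean of at least 7 (difference -0.06, 95% interval -0.49 to 0.38), and its sign turned without MHC-Plin5 4 or control 4. The 14 rows of Scn2a had differences between -0.49 and 0.05.

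Among the 10 pore and 14 auxiliary genes of calcium channels, 1 was called higher and 0 lower, which is near the 2.08% and 1.17% of all genes. The called gene was Cacnb1, a beta subunit that brings the pore to the membrane and is best known from skeletal muscle. Cacnb1 stood at 6.81, 6.97, 7.08 and 7.03 in MHC-Plin5 hearts and at 6.56, 6.61, 6.48 and 6.57 in control hearts. No hearts overlapped, and the rise was 1.33-fold (difference 0.42, SE 0.09, adjusted p = 0.0382). Its control mean of 6.56 put it outside the group of 31, and its call was kept without MHC-Plin5 1 or MHC-Plin5 4 but not without any other single heart. Cacnb2, the main beta subunit of heart, was measured on a dim row and had -0.16 (adjusted p = 0.5).

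Cacna1c, the L-type pore through which calcium enters working muscle, had a level of 10.61, 10.37, 10.28 and 10.76 in MHC-Plin5 hearts, against 10.59, 10.65, 10.72 and 10.61 in control hearts. The groups overlapped, and the 95% interval of its difference was -0.40 to 0.12. Cacna2d1, which assembles with that pore and raises its number at the membrane, separated the groups. It stood at 10.97, 10.66, 10.53 and 11.01 in MHC-Plin5 hearts, against 11.49, 11.53, 11.27 and 11.11 in control hearts (difference -0.56, SE 0.14, adjusted p = 0.0569). A second row of Cacna2d1 had the same direction (-0.57, adjusted p = 0.0378 in a fit over all rows with 1 gene), and the gene was called lower with the mean of both rows (adjusted p = 0.0385). A fit that also held each array's median did not call it (0.0629), and leaving out 1 heart gave a call only for MHC-Plin5 4, with adjusted p values up to 0.171. Cacna1g and Cacna1h are pores of the T-type current, which opens at more negative potentials and is prominent in the node. Cacna1g stood at 6.93, 7.0, 6.97 and 7.69 in MHC-Plin5 hearts and at 7.96, 7.78, 7.58 and 7.72 in control hearts. Only MHC-Plin5 4 reached the controls, and the difference was -0.61 (SE 0.17, adjusted p = 0.0787), or -0.79 without that heart (adjusted p = 0.00324), the only heart whose removal gave a call (0.215 at most otherwise). Cacna1h had -0.57 (SE 0.22, adjusted p = 0.219). Cacna1d, the L-type pore of node and atria, had -0.17 on a dim row (adjusted p = 0.584).

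The MHC-Plin5 hearts differed among themselves in these genes. In 25 of the 31, hearts 2 and 3 both lay below hearts 1 and 4, where 29.9% of all genes at that level had this order. The lowest of all 8 hearts was MHC-Plin5 2 or 3 in 26 of the 31, against 35.1% of those genes. The mean level of the 31 was 8.29, 7.74, 7.91 and 8.43 in MHC-Plin5 hearts 1 to 4, and 8.57, 8.62, 8.55 and 8.47 in control hearts 1 to 4. Every MHC-Plin5 mean was under every control mean, and the spread among MHC-Plin5 hearts was wider. The SD was larger in MHC-Plin5 than in control hearts in 25 of the 31, and in 69.2% of all genes at that level. Plin5 itself stood at 12.69 and 12.63 in hearts 2 and 3, and at 12.17 and 12.08 in hearts 1 and 4. The order with hearts 2 and 3 both below hearts 1 and 4 was also in 4 of the 5 ventricular markers and 4 of the 8 cardiomyocyte markers. The means in MHC-Plin5 hearts 1 to 4 were 11.17, 10.93, 10.70 and 11.21 for the ventricular markers. For the cardiomyocyte markers they were 13.22, 13.14, 13.07 and 13.27. Of the 9 atrial, 6 fibroblast and 7 macrophage markers, 0 had that order. The relation of the channel levels to Plin5 or to these markers was not tested.

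**Figure D4:**
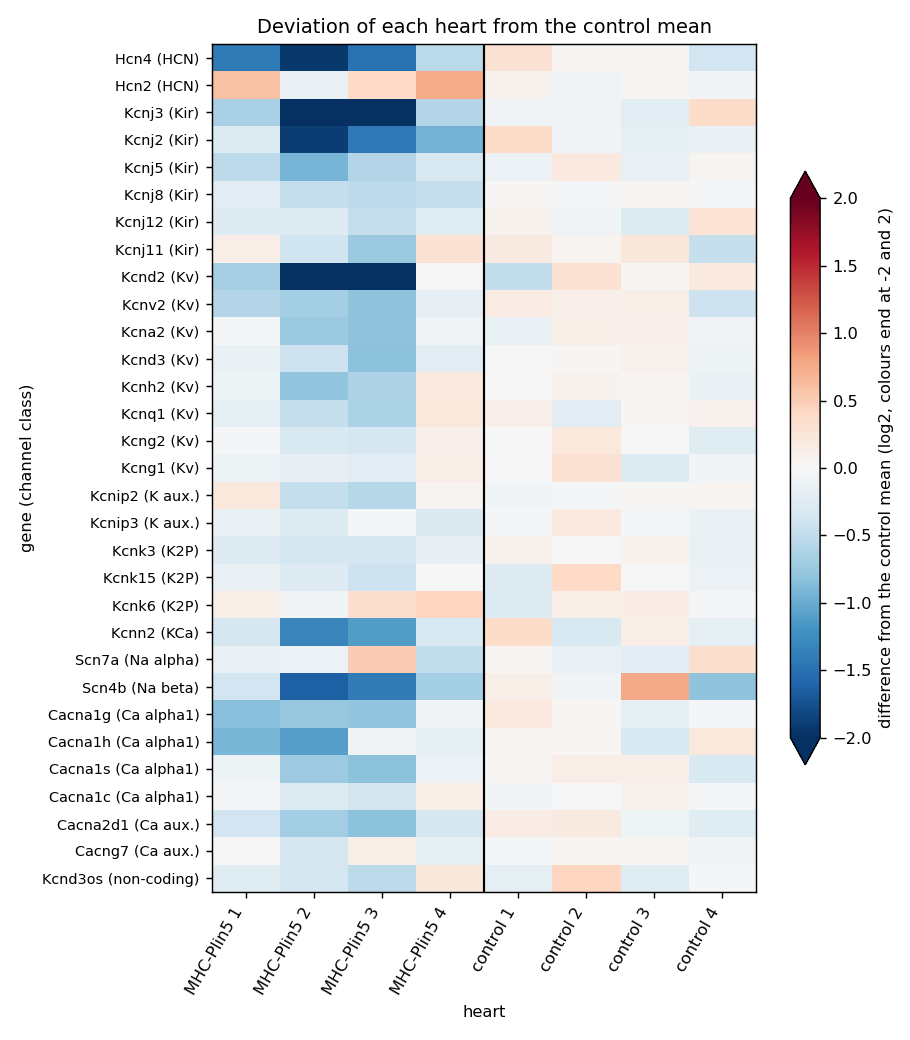
Each cell is the level of a channel gene in a heart minus its mean in the 4 control hearts (log2), with MHC-Plin5 hearts left of the line and control hearts right of it; blue is lower and red higher, and colours end at -2 and 2. Rows are the 31 genes with a control mean of at least 7. The columns of MHC-Plin5 2 and 3 are the bluest, with Kcnj3 and Kcnd2 past the end of the scale in both.

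Several of these genes are expressed more in the atria or the node than in the ventricle, and the hearts carried unequal amounts of atrial marker RNA. Of the 9 atrial markers limma called 0 (1 had an unadjusted p under 0.05), and their mean level ran from 7.43 to 9.88 in MHC-Plin5 hearts and from 6.90 to 9.74 in control hearts. Myl7, the atrial myosin light chain, stood at 10.74, 5.98, 11.90 and 11.51 in MHC-Plin5 hearts, against 7.13, 10.61, 6.35 and 12.92 in control hearts. MHC-Plin5 2 thus had the lowest Myl7 and also the lowest Kcnj3, Kcnj5 and Hcn4. Controls 1 and 3, with Myl7 at 7.13 and 6.35, had Kcnj3 at 10.26 and 10.09 and Hcn4 at 8.82 and 8.56. MHC-Plin5 3 had Myl7 at 11.90 and Kcnj3 at 8.29. Without MHC-Plin5 2 the differences were -1.15 for Hcn4 (limma adjusted p = 0.0483), -0.47 for Kcnj5 (0.124) and -1.09 for Kcnj3 (0.147). Of the 5 markers of the sinoatrial node, Shox2, Isl1, Tbx3, Tbx18 and Vsnl1, limma called 0, with 0 at an unadjusted p under 0.05, and they averaged 5.81 to 6.24 in MHC-Plin5 hearts and 6.0 to 6.26 in control hearts. Tbx3, a transcription factor of the node, had a difference of -0.33 (adjusted p = 0.304). The part of atrial or nodal tissue in these results was not tested.

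**Figure D5:**
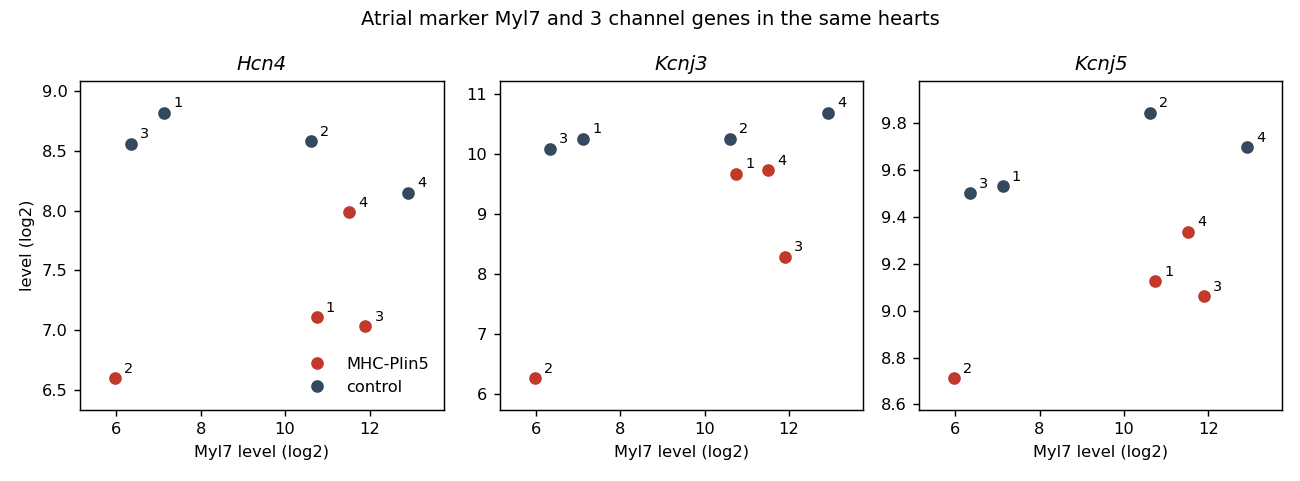
Level of Hcn4, Kcnj3 and Kcnj5 (log2, y axes) against that of the atrial marker Myl7 (log2, x axis) in the same hearts, MHC-Plin5 in red and control in dark blue, numbered by heart. Controls 1 and 3 have Myl7 at 7.13 and 6.35 with Kcnj3 at 10.26 and 10.09, while MHC-Plin5 2 has Myl7 at 5.98 and Kcnj3 at 6.27.

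The other 99 channel genes had a control mean under 7, where levels lie near the dim end of the array. Kcna4 was called lower and Cacnb1 higher, and 97 were not called, where the background at that level was 0.352% lower and 0.992% higher. The groups did not overlap in 4 lower genes (Kcna4, Kcnmb1, Kcnj6 and Kcnk1) and 3 higher ones (Cacnb1, Kcnn3 and Kcnj4), where 2.6% and 2.32% of genes at that level did not. The median difference of the 99 was -0.09, against -0.05 over all 11084 genes with such a control mean. Under 0 were 75 of the 99, and 65.4% of the 11084. In 56 of the 99 the highest heart was control 2, the array with the highest median (6.24), as it was in 44.4% of all genes at that level. The median of the 99 was -0.04 after quantile normalization, when 64 were under 0, and -0.05 after median centring, when 65 were. The median of the 31 better expressed genes was -0.37 and -0.29 under the same 2 scalings, with 29 under 0 in each. Over all 130, 4 were called lower and 1 higher, where 1.17% and 2.08% of all genes were. Groups without overlap made up 12 lower and 3 higher members, where 5.0% and 6.24% of all genes had them.

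Genes that work with these channels were read in separate lists, each beside the share over all genes. Of 30 partners and regulators of channels, 1 was lower and 1 higher (3.33% lower, median -0.10), against 1.17% lower, 2.08% higher and a median of -0.03 over all genes. The lower gene was Fgf14, an intracellular FGF that binds sodium channels, at 5.45, 5.11, 5.82 and 5.85 in MHC-Plin5 hearts, against 6.76, 6.84, 6.70 and 6.89 in control hearts. It was 2.36-fold lower (difference -1.24, SE 0.15, adjusted p = 0.00189) and the groups lay far apart. The higher gene was Lrrc10, a leucine-rich repeat protein of heart muscle (0.44, SE 0.10, adjusted p = 0.0397). Of 24 other channels, exchangers and pumps, 1 was lower and 1 higher (4.17%, against 1.17% and 2.08% of all genes). The muscle chloride channel Clcn1 was lower (-0.87, SE 0.16, adjusted p = 0.0174). Lrrc8d, a subunit of the volume-regulated anion channel, was higher (0.54, SE 0.10, adjusted p = 0.0161), and the median of that list was 0.08.

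All 17 genes of gap junctions and the intercalated disc, where heart muscle cells join, had a control mean of at least 7. Of these, 0 were called higher, against 3.44% of genes at that level, and the median was -0.22. Called lower was 1 (5.88%, against 1.17% of all genes and 2.19% at that level). It was Dsg2, a desmosomal cadherin, at 8.43, 8.02, 8.01 and 8.53 in MHC-Plin5 hearts and 8.86, 8.83, 8.85 and 8.77 in control hearts (-0.58, SE 0.13, adjusted p = 0.0368). The order of the MHC-Plin5 hearts, with 2 and 3 lowest, was as in many channel genes. Gja1, the main ventricular gap junction protein, had -0.10 (adjusted p = 0.67). In 7 of the 17 all MHC-Plin5 hearts lay below all controls, and in 2 above them. Among all genes with a control mean of at least 7, 8.0% and 11.1% did so. An unadjusted limma p under 0.05 was reached by 9 of the 17, and by 2337 of the 8854 genes at that level. Of 28 transcription factors of the conduction system and of channel genes, 2 were lower (7.14%, against 1.17% of all genes) and 0 higher (median -0.15), and 4 of the node markers stand in this list too. They were the homeodomain protein Hopx (-0.85, SE 0.15, adjusted p = 0.0122) and the mineralocorticoid receptor Nr3c2 (-0.72, SE 0.17, adjusted p = 0.0456).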

How the data were processed

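RNA of 8 hearts was labelled with biotin and hybridised to Affymetrix whole-transcript arrays, per the labels' protocols. The deposited values are log2 levels. The submitters' processing notes name RMA and Affymetrix Expression Console, of a version not given in the sources used here. Of 35556 rows, 21789 had exactly 1 symbol in GEO's platform annotation, which gave 19938 genes, each taken at its brightest row on average. The gene IDs of all 130 channel genes matched the RefSeq table of GRCm38.p6. Scanner files were not used here, so no batch was tested.

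All genes were fitted with lmFit and eBayes of limma 3.58.1 under R 4.3.3. The model held the genotype alone, and tests were two-sided with Benjamini-Hochberg adjustment over 19938 genes and no filter on dim rows. Confidence intervals are limma's at 95% per gene, not adjusted for the number of genes. The labels number the hearts but say nothing of separate cultures or batches, and each heart was taken as 1 mouse, so p-values measure the spread between these hearts. The heart number did not pair hearts across groups, since deviations from the group means correlated at 0.19, 0.03, -0.11 and -0.04 for numbers 1 to 4. In data simulated for this comparison with 19938 genes, 29.9%, 95.5% and 95.5% of genes changed by 0.5, 1 and 2 were called. The noise was normal, independent between genes and equal in both groups, with each gene's own SD, and the changed genes were drawn at random. These shares therefore do not carry over to genes with a wide or shared spread. In the hearts Kcnj3, Kcnd2, Kcnj2 and Scn4b differed by more than 1 and were not called.

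The channel genes and the lists of partners and cell type markers were chosen with earlier results of these data known. Named members are those called, a list of core cardiac channels, the 10 genes with a control mean of at least 7 and the smallest p, the 5 dimmer genes with the largest difference, and those nearest the limit of 7. A few other members, on either side of that limit, are named as well, chosen after their values were seen. Of the lists, the called genes and those set beside a result are named. Alternatives were filters at a mean of 5 or 7, median centring, quantile normalization, robust variances with an intensity trend, array weights, the mean over rows, the array median as a covariate, the heart number as a block, each heart left out, the 2 arrays with the highest medians left out, and a threshold of 0.01. Promoter sequences were found for 99 of the 130 genes.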

Additional observations from a re-analysis of the deposited data

Results flagged for a closer look

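In 6 of 78 groups of 4 hearts tested for the named channel genes, 1 heart lay far from the others relative to the range of its group, and chance gives about 1 in 20. MHC-Plin5 4 had Cacna1g at 7.69, above the other MHC-Plin5 hearts and among the controls. MHC-Plin5 3 had Kcnj12 at 6.74, below the other MHC-Plin5 hearts. Control 4 had Kcnv2 at 6.72, below the other controls and inside the MHC-Plin5 range. Among dimmer genes named because their groups did not overlap, control 2 lay above the other controls in Kcnj6 at 4.74 and in Kcnk1 at 6.66, and control 4 did so in Kcnmb1 at 7.04.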

How the results depend on the processing

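The count of called genes over the table was 648 and lay between 233 and 1174 with 1 heart left out, the highest being without MHC-Plin5 4 and the lowest without MHC-Plin5 2. The 5 called channel genes became 0 to 10, the 3 with a control mean of at least 7 became 0 to 8, and the 7 called partner genes became 2 to 15, with the highest count without MHC-Plin5 4 each time. Without control 1 or control 2, limma called 0 channel genes, while 27 and 19 of the 130 had an unadjusted p under 0.05. Without control 3 it called 0 of the 31, while 15 had one. Array weights gave 1625 genes, 16 channel genes (13 lower), 12 of the better expressed and 18 partner genes. Quantile normalization gave 8 channel genes and 6 of the better expressed, and a filter at a mean of 7 gave 5 of those 31. With the heart number as a replicate block 2 channel genes were called, Hcn4 and Kcnj2, and without the 2 arrays with the highest medians 3 were. A threshold of 0.01 left 169 genes, 0 channel genes and 1 partner gene. An unadjusted limma p under 0.05 was reached by 28 of the 130 and by 3300 of all 19938 genes.

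Differences of uncalled genes turned sign in 4 of the named channel genes. Kcna5 lay between -0.065 and 0.27 with 1 heart left out (lowest without control 2) and at -0.16 without the 2 arrays. Kcne1 lay between -0.15 (without MHC-Plin5 4) and 0.27, was also under 0 without control 3, and was -0.10 without the 2 arrays. Kcnj11 lay between -0.34 and 0.0094 (highest without MHC-Plin5 3). Scn7a lay between -0.25 and 0.083 (highest without MHC-Plin5 4), was 0.057 without control 4 and was 0.033 without the 2 arrays. The other named channel genes kept their direction under each alternative run. The cause of these shifts was not tested. Hcn4 was called under each alternative at 0.05 except without control 1, 2 or 3.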
